A study of Rattus norvegicus with 12 samples.

Results

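The genes described here are 9 striated muscle genes whose products carry ankyrin repeats, LIM domains or Xin repeats and sit on the contractile lattice: Ankrd1, Ankrd2, Ankrd23, Csrp3, Xirp1, Xirp2, Fhl1, Fhl2 and Nrap. The set is defined by gene name and was chosen with earlier results of these data known. All 9 were present among the 32623 genes of the deposited table. A low-count filter left 12304 genes to be tested, and 8 of the 9 were among them; Ankrd2 was not. RNA from rat hearts was sequenced in 12 libraries, 4 in each of 3 groups. The animals were Sprague Dawley males of 130 to 150 g, aged 5 weeks. CTRL animals breathed normal air for 8 weeks, so the stated age cannot be that at which the hearts were taken. SU_HX animals were given 20 mg/kg of SU-5416, which blocks VEGF receptors, with 3 weeks in 10% oxygen and 2 weeks of normoxia, and then vehicle for 3 weeks; the labels leave unclear which of these came first. Chrysin animals had the same SU-5416 and hypoxia and then took the plant flavone chrysin for the last 3 weeks, at a daily 100 mg/kg. SU-5416 with hypoxia is used in rats to model pulmonary hypertension, which loads the right ventricle. The labels do not state which part of the heart was taken, nor outright that each library is a separate animal, so the spread behind each p-value is that between libraries.

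Sarcomeres are anchored at the Z-disc, and the giant protein titin acts as their spring. Ankrd1, Ankrd2 and Ankrd23 form a family of muscle ankyrin repeat proteins that bind the elastic part of titin and can also enter the nucleus, and Ankrd1 is a widely used marker of haemodynamic load on the heart. Csrp3, the muscle LIM protein, sits at the Z-disc. Fhl1 and Fhl2 are four-and-a-half LIM proteins that bind titin, and both also work as transcriptional cofactors. Xirp1 and Xirp2 are the Xin actin-binding proteins of the intercalated disc, the junction between heart muscle cells, and Nrap is a nebulin-related LIM protein that takes part in myofibril assembly.

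Total counts ran from 3997306 to 6009798 per library. The summed level of 12 cardiomyocyte markers was 90524 to 100511 CPM in CTRL, so the labelled tissue carried its defining genes; CPM is a count scaled to a common, TMM-adjusted library total. In SU_HX the same sum was 19144 to 48571 CPM, and in Chrysin 32707 to 88677 CPM. From CTRL to SU_HX the largest falls in mean level among the 12 were of Myh6, 40500 to 4010 CPM, and Atp2a2, 16414 to 4810 CPM. A pair of libraries stood apart. Introns took 63.4% of the unique nuclear reads in SU_HX 1, against 42.6% to 50.0% in the other 11 libraries. In Chrysin 3 the summed level of 6 atrial markers was 234.9 CPM, inside the CTRL range of 210.4 to 254.2 CPM, while the other Chrysin libraries had 3236 to 7388 CPM. Outside CTRL this sum is mostly Nppa, a natriuretic peptide gene that loaded ventricles also express, which had 7084, 2941, 120 and 4479 CPM in Chrysin 1 to 4. Within the atrial list Chrysin 3 is thus set apart mainly by 1 gene. Its cardiomyocyte sum of 88677 CPM was the highest of its group, where the others had 32707 to 45196 CPM. Its summed fibroblast markers, at 4688 CPM, were inside the CTRL range of 3941 to 6176 CPM, as were its smooth muscle markers. Its summed macrophage, endothelial, erythroid and lung markers were above the CTRL ranges. Results that rest on either library are given below with and without it.

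The promoters of Ankrd23 and Xirp2 are shown because these tested genes rose at least 2-fold in SU_HX over CTRL and had a promoter window. Ankrd1 also rose at least 2-fold but had no window, nor had Csrp3 or Nrap, so the motifs of these genes were not searched. RefSeq windows of 300 bases, from 250 bases before the start of the gene to 50 after it, matched 6 of the 9 genes. Each is printed from 5′ to 3′ on the gene's strand, in the GRCr8 build, with the matches of the motifs below in capitals. The Ankrd23 window lies at chr9:46274461-46274760 on the minus strand, and the Xirp2 window at chr3:72533936-72534235 on the plus strand.
Ankrd23: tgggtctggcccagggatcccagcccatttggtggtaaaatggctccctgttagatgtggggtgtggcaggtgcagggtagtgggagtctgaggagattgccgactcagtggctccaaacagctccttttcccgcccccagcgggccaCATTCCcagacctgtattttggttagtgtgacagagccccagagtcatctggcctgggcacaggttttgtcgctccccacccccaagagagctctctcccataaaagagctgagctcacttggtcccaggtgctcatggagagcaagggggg
Xirp2: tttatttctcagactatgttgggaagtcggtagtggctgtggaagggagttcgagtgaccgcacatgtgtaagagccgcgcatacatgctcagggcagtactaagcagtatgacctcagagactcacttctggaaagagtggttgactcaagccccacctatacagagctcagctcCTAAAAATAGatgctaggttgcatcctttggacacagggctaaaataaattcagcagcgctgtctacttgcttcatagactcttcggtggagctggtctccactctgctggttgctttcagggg

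Motifs of 4 kinds were searched on both strands: CATTCC, the core bound by TEAD factors; the CArG box bound by SRF; the MEF2 site; and GATAA, the core bound by GATA factors. CATTCC was found once in the Ankrd23 window, at bases 149 to 154, and 14.2% of all 33469 promoter windows of this length held it. The MEF2 site was found once in the Xirp2 window, at bases 177 to 186, and 3.29% of windows held it. Xirp1 held a MEF2 site in 2 overlapping windows of its 3. The CArG box, present in 1.64% of windows, was found in both windows of Fhl2 and in 1 of the 2 of Fhl1. The first Fhl2 window also held CATTCC and a MEF2 site. GATAA, present in 26.5% of windows, was found in Xirp1, Fhl1 and Fhl2, and the Ankrd2 window held none of the 4. The 4 motifs did not overlap each other in the printed windows, and these matches describe letters only.

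In CTRL hearts the 9 genes spanned a wide range of levels. Per kilobase of exon, Ankrd1 was at 1035 ± 197 CPM (SD, n = 4) and Fhl2 at 860 ± 50.3 CPM, and their values overlapped. Csrp3 followed at 392 ± 24.3 CPM per kilobase, then Nrap at 138 ± 16.5 and Fhl1 at 100.1 ± 4.47. Each of these 3 was separated from its neighbours by values that did not overlap. Xirp2 at 79.0 ± 10.5 and Xirp1 at 70.4 ± 7.06 CPM per kilobase overlapped, and Ankrd23 lay below them at 4.56 ± 1.97. Ankrd2 was last, with 1 count in the 4 CTRL libraries together. In SU_HX the order per kilobase was Ankrd1, Xirp2, Csrp3, Fhl2, Fhl1, Nrap, Ankrd23, Xirp1 and Ankrd2, and every pair of neighbours overlapped except Xirp1 and Ankrd2. By CPM, Xirp2 held place 90 of 12304 genes in CTRL and place 8 in SU_HX, and Ankrd1 places 48 and 14. The 9 genes together took 0.526% to 0.585% of all counts in CTRL, 0.680% to 3.24% in SU_HX and 1.03% to 2.57% in Chrysin.

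**Figure D1:**
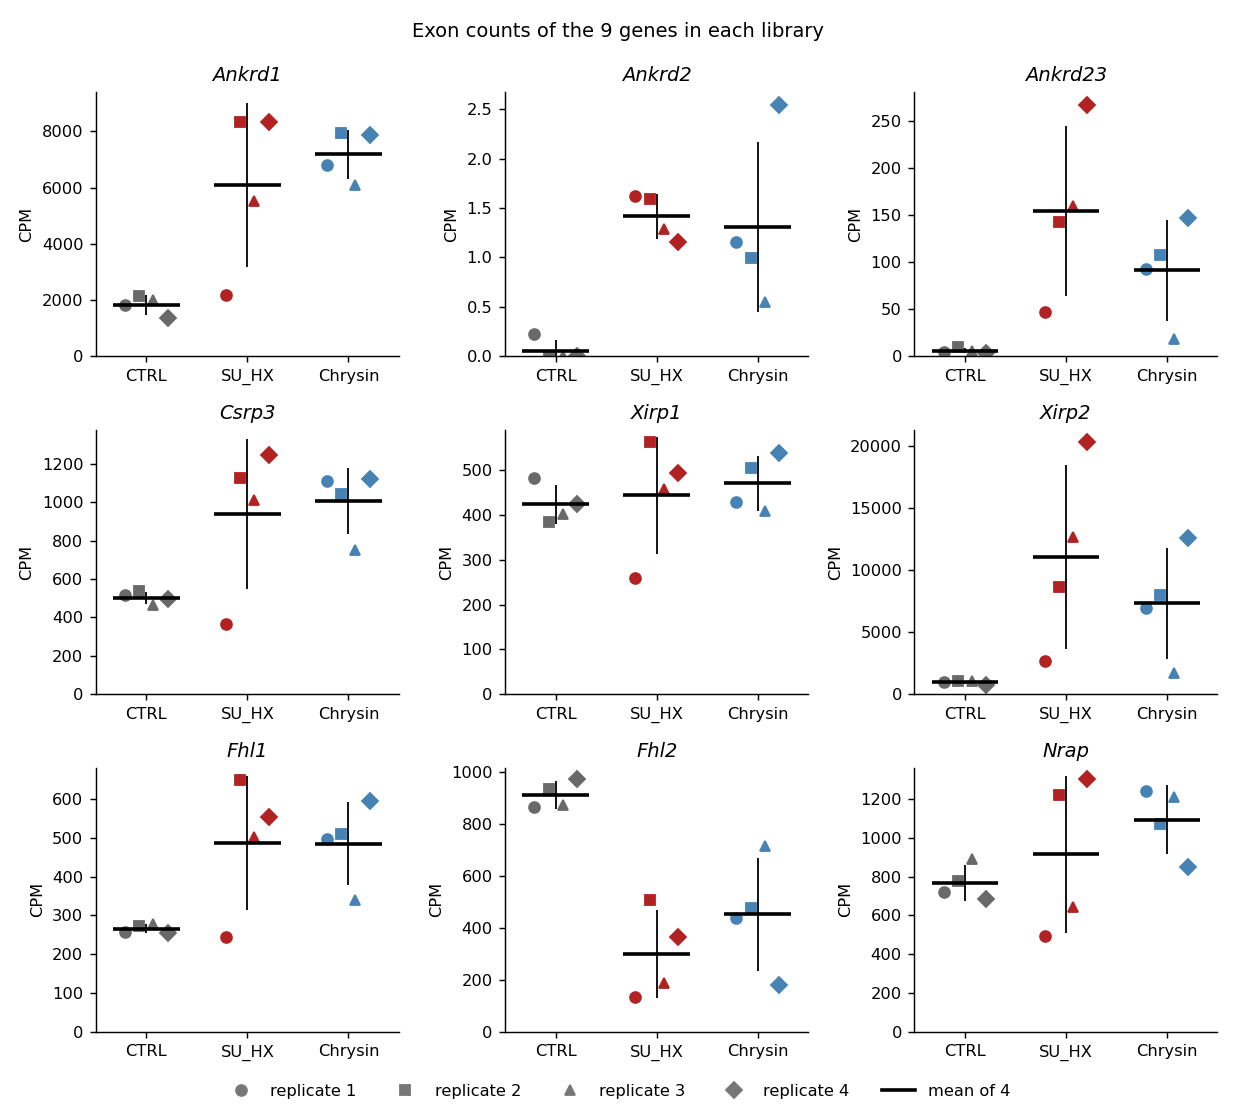
Exon counts of the 9 genes in CPM (linear axis from 0) in each of 12 libraries, by group; marker shapes give the replicate number, thick bars the group mean and thin bars the SD (n = 4). Ankrd23 and Xirp2 are higher in every SU_HX and Chrysin library than in any CTRL library, Fhl2 is lower in every one, and SU_HX 1 and Chrysin 3 are often nearest to CTRL.

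Between SU_HX and CTRL, 5 of the 8 tested genes were called higher and 1 lower by edgeR's quasi-likelihood test with a Benjamini-Hochberg adjusted p under 0.05 over all genes. Ankrd23, Xirp2, Ankrd1, Csrp3 and Fhl1 were higher, Fhl2 was lower, and Xirp1 and Nrap did not pass. Over all 12304 genes 30.7% were called, 16.0% higher and 14.7% lower. The authors' deposited table, by its own adjusted p under 0.05, calls 7 of the 9 genes in this comparison, the same 6 and Ankrd2. The share of all genes that the authors' test calls was not counted. The shares above belong to the edgeR fit and are not a background for these 7. In RNA from whole tissue, fewer cells of a type and less RNA per cell cannot be told apart.

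Ankrd1, the cardiac ankyrin repeat protein that binds titin and represses transcription, was already one of the abundant messages in CTRL. Its level was 1821, 2141, 2018 and 1349 CPM in CTRL 1 to 4, and 2185, 8329, 5511 and 8318 CPM in SU_HX 1 to 4. The groups did not overlap, but SU_HX 1 lay just above the highest CTRL library. The rise was 3.32-fold (log2 1.73 ± 0.37 SE, adjusted p = 0.00503 by edgeR), and without SU_HX 1 it was 4.03-fold. The gene lies on chromosome 1 with 9 exons.

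Ankrd23, the family member also called DARP and tied to energy metabolism in muscle, was the member with the largest tested rise. CTRL libraries had 4.66, 9.78, 5.36 and 4.10 CPM, and SU_HX libraries 46.6, 142.5, 159 and 267 CPM. Even the lowest SU_HX library stood well above the highest CTRL library. The rise was 25.5-fold (log2 4.68 ± 0.64 SE, 95% interval of the fold 9.75 to 66.9, adjusted p = 0.000992 by edgeR). It held place 26 among the 12304 genes ordered by rise, and leaving out any 1 library gave log2 rises of 4.27 to 5.02. The gene has 9 exons on chromosome 9, and its promoter is the first of those printed above.

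Ankrd2, known mainly from skeletal muscle, was close to the limit of detection. Its counts were 1, 0, 0 and 0 in CTRL, 7, 9, 6 and 5 in SU_HX and 7, 6, 2 and 16 in Chrysin. Each SU_HX and Chrysin library had more than any CTRL library, though 1 or a few reads decide these values. Pooled over libraries, SU_HX had 27 counts against 1 in CTRL, a ratio of 29.3 per total count without TMM scaling. Its exact 95% interval of 4.83 to 1199 covers counting error only. Fitted with no filter on low counts, Ankrd2 had an adjusted p of 0.00309 by edgeR in SU_HX over CTRL and 0.0105 in Chrysin over CTRL. Its counts limit what can be said of its size. Of 11 skeletal muscle markers in the table, Myod1 and Pvalb had 0 counts in all 12 libraries, which allows up to 3 counts of each. Of the 4 of these markers that were tested, Myh2, Tnnt3 and Mybpc2 rose in SU_HX over CTRL and Ckm, which the heart also expresses, fell. Tnni2, Tnnc2, Actn3, Mylpf and Atp2a1 had only 27, 6, 12, 22 and 4 counts in all 12 libraries together and were not tested. Mybpc2, a myosin-binding protein of fast muscle fibres, had 1.5 to 3.55 CPM in CTRL and 14.6 to 34.3 CPM in SU_HX. The part of such markers in the Ankrd2 values was not tested.

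Xirp2, the larger Xin protein, which binds actin at the intercalated disc, had the largest gain in counts. Its level was 981, 1052, 1026 and 771 CPM in CTRL and 2630, 8664, 12682 and 20315 CPM in SU_HX. All SU_HX libraries were above all CTRL libraries, and they differed widely among themselves. The rise was 11.6-fold (log2 3.53 ± 0.63 SE, 95% interval of the fold 4.48 to 29.8, adjusted p = 0.00227 by edgeR). The gene took 0.0818% to 0.101% of a library's counts in CTRL and 0.281% to 2.00% in SU_HX. Xirp2 lies on chromosome 3 with 9 exons and 12117 bases of exon.

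Xirp1, its relative and a protein of the same junction, had 482, 385, 402 and 425 CPM in CTRL. In SU_HX it had 259, 562, 458 and 495 CPM. The groups overlapped, with the lowest value of all in SU_HX 1. The log2 difference was 0.07, with a 95% interval of -0.42 to 0.55 and an adjusted p of 0.840 by edgeR. The interval leaves room for a 1.46-fold rise, and the sign turned without SU_HX 2, where the difference was -0.07.

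Csrp3, the muscle LIM protein, had 515, 537, 463 and 496 CPM in CTRL and 368, 1127, 1010 and 1246 CPM in SU_HX. SU_HX 1 lay below every CTRL library and the other 3 above them. The rise was 1.87-fold (log2 0.90 ± 0.31 SE, adjusted p = 0.0413 by edgeR). This call did not hold under 5 other settings, among them relative log expression scaling (adjusted p = 0.0508) and limma-voom (0.0856). It was also lost without any 1 library other than SU_HX 1 and Chrysin 3, 10 libraries in all, while without SU_HX 1 the rise was 2.24-fold with an adjusted p of 0.00105.

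Fhl1 had 257, 273, 278 and 254 CPM in CTRL. In SU_HX it had 243, 648, 501 and 553 CPM. SU_HX 1 was the lowest of the 8 libraries and the other 3 were above all CTRL values. The rise was 1.83-fold (log2 0.87 ± 0.27 SE, adjusted p = 0.0251 by edgeR). The call was lost without any 1 of the CTRL libraries, or without SU_HX 2, 3 or 4, with adjusted p-values of 0.0541 to 0.0665. Without SU_HX 1 the rise was 2.14-fold with an adjusted p of 0.00159 by edgeR.

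Fhl2, the cofactor whose message is strongest in heart, was the only 1 of the 9 that fell. It had 865, 937, 873 and 976 CPM in CTRL and 136, 508, 187 and 364 CPM in SU_HX. The highest SU_HX library was far below the lowest CTRL library. The fall was 3.06-fold (log2 -1.61 ± 0.43 SE, adjusted p = 0.0131 by edgeR), and without SU_HX 1 it was 2.59-fold with an adjusted p of 0.0212. Fhl2 lies on chromosome 9 with 5 exons.

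Nrap had 718, 778, 892 and 684 CPM in CTRL. In SU_HX it had 495, 1221, 642 and 1302 CPM. SU_HX 1 and 3 were below all CTRL libraries and SU_HX 2 and 4 above them. The log2 difference was 0.25, with a 95% interval of -0.38 to 0.88 and an adjusted p of 0.536 by edgeR.

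**Figure D2:**
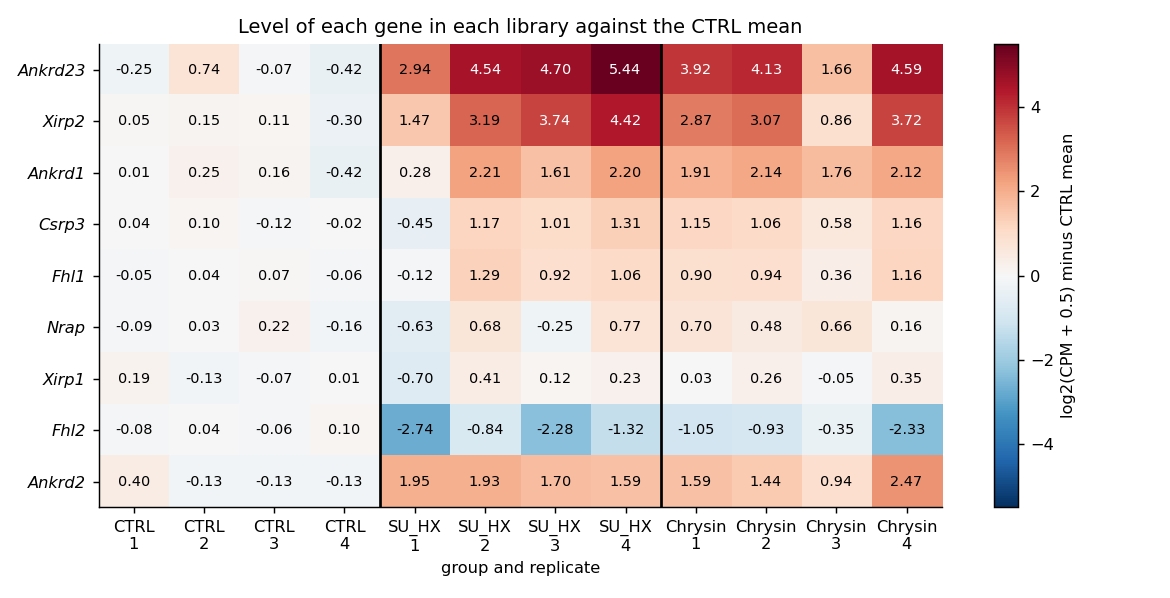
Level of each gene (rows) in each of the 12 libraries (columns) as log2(CPM + 0.5) minus the CTRL mean, which understates the change of low genes such as Ankrd2; red is above and blue below the CTRL mean, and the number is printed in each cell. SU_HX 1 has Ankrd1 at 0.28 and Xirp2 at 1.47, whereas Chrysin 3 has Ankrd1 at 1.76 and Xirp2 at 0.86.

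The genes did not move as 1 block within a library. On the log2(CPM + 0.5) scale, as differences from the CTRL mean, SU_HX 1 had Ankrd23 at 2.94 and Xirp2 at 1.47 but Ankrd1 at 0.28, Csrp3 at -0.45 and Fhl1 at -0.12. The same library had the lowest Fhl2 of all 12, at -2.74. Chrysin 3 had the opposite arrangement, with Ankrd1 at 1.76 and Xirp2 at 0.86, Ankrd23 at 1.66 and Fhl2 at -0.35. SU_HX 4 and Chrysin 4 had the highest Ankrd23 and Xirp2 of their groups, and Chrysin 4 the lowest Fhl2 of its group. The SU_HX libraries with the lower Fhl2, 1 and 3, also had the lower summed cardiomyocyte markers, and Chrysin 3 had the highest Fhl2 and the highest sum of its group. That sum is weighted by Myh6 and Atp2a2, and 6 of its 12 genes did not pass in SU_HX against CTRL. The part of these markers in the members' values was not tested.

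Ratios of related genes within a library do not depend on how libraries are scaled. They were taken per exon length on the count + 0.5 and compared by a two-sided exact permutation test over libraries, whose smallest p with 4 against 4 is 0.0286; 12 such tests were made and none passed after adjustment, the lowest adjusted p being 0.0686. Fhl2 stood at 8.40, 8.57, 7.85 and 9.61 times Fhl1 in CTRL 1 to 4. In SU_HX it stood at 1.40, 1.96, 0.932 and 1.64 times Fhl1. The ratio thus fell 6.0-fold with no overlap (exact permutation p = 0.0286). Xirp2 and Xirp1 were at similar levels per length in CTRL, with ratios of 0.901 to 1.36. In SU_HX Xirp2 stood at 5.05, 7.65, 13.7 and 20.4 times Xirp1, a shift of 9.11-fold with no overlap (exact permutation p = 0.0286). Ankrd23 went from 0.00354 to 0.00623 of Ankrd1 in CTRL to 0.0231 to 0.0433 in SU_HX, a shift of 7.60-fold with no overlap (exact permutation p = 0.0286). The ratio of Ankrd2 to Ankrd1 depended on the added pseudocount and is not read here.

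**Figure D3:**
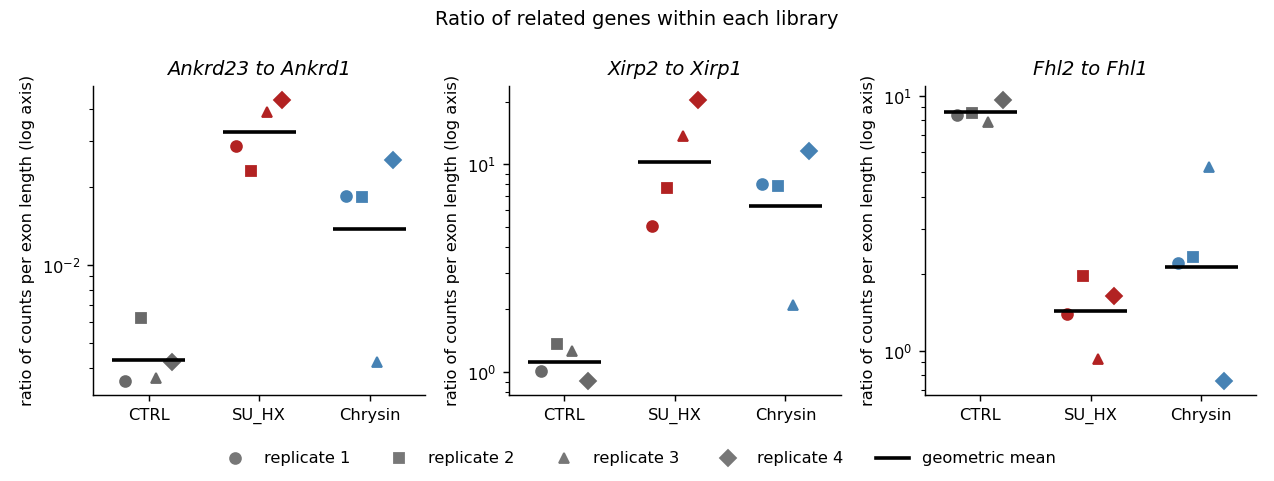
Ratio of counts per exon length between related genes in each library (log axes), for Ankrd23 to Ankrd1, Xirp2 to Xirp1 and Fhl2 to Fhl1; marker shapes give the replicate number and bars the geometric mean of 4. The SU_HX values do not overlap CTRL in any of the 3 ratios, and Chrysin 3 is the Chrysin library nearest to CTRL in each.

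Reads from introns gave a second readout of the same genes in the same libraries, and all 9 passed the filter on it. Between SU_HX and CTRL, 5 were called higher and 1 lower by edgeR on intron reads, where 19.8% of 12242 genes were called, 8.50% higher and 11.3% lower. Xirp2 introns rose 12.1-fold, from 53.9, 50.1, 75.7 and 72.1 CPM in CTRL to 201, 398, 859 and 1606 CPM in SU_HX (adjusted p = 0.00407 by edgeR). The size is close to that of its exon counts, and the order of the 4 SU_HX libraries was the same in exons and introns. Ankrd23 introns rose 11.9-fold (adjusted p = 0.00368 by edgeR), Ankrd1 introns 2.20-fold (0.0132) and Fhl1 introns 2.07-fold (0.0100). Ankrd1 thus had a log2 rise of 1.14 in introns and 1.73 in exons, a difference that was not tested. Its intron values overlapped between the groups, with SU_HX 1 at 164 CPM and CTRL 1 at 186 CPM. Fhl2 introns fell 2.97-fold, from 1677 to 2288 CPM in CTRL to 428 to 964 CPM in SU_HX (adjusted p = 0.0050 by edgeR). Ankrd2 introns passed with an adjusted p of 0.0483 by edgeR on 28 reads in SU_HX against 6 in CTRL. Csrp3 introns had a log2 difference of 1.20 (adjusted p = 0.0622), Nrap introns 0.51 (0.133) and Xirp1 introns -0.77 (0.118), none of which passed. Without SU_HX 1 and Chrysin 3, Csrp3 (0.0228) and Nrap (0.0179) introns passed as higher. SU_HX 1 was the lowest SU_HX library in both, so leaving it out raises them by construction. Rows that hold no exons took 18.9% to 48.0% of intron reads in the libraries, and SU_HX 1 had the highest share.

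**Figure D4:**
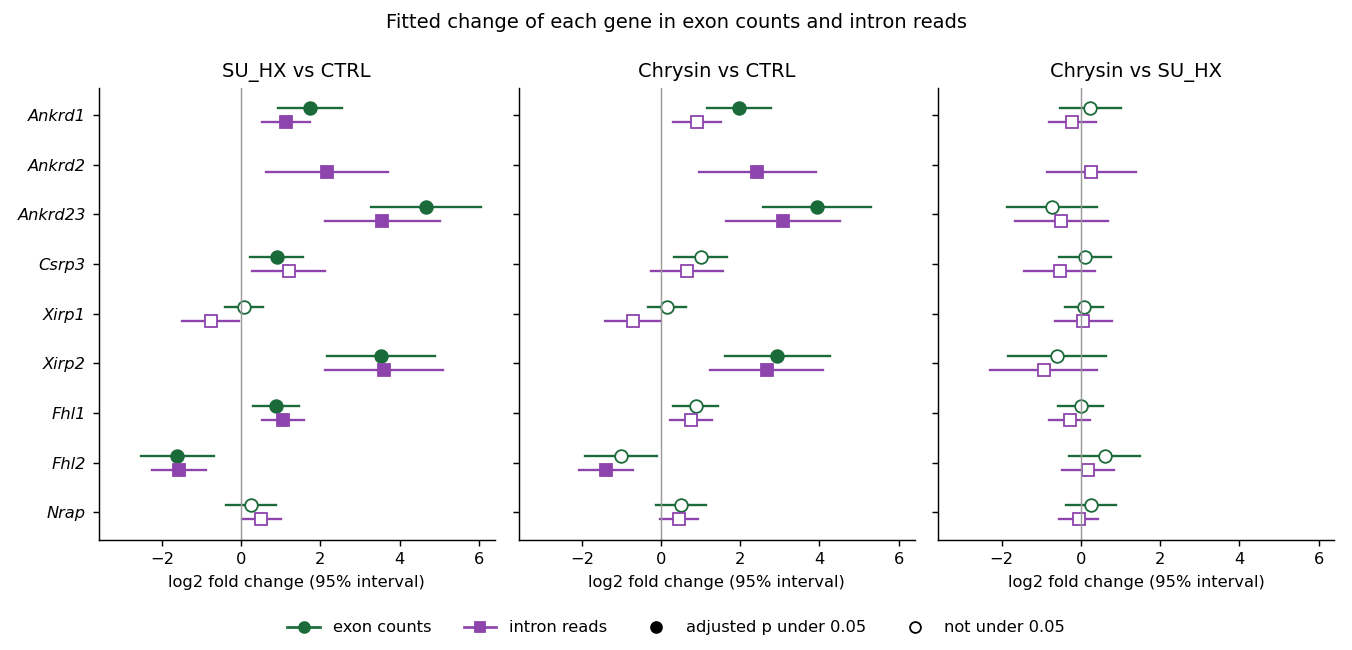
Fitted log2 fold changes of the 9 genes in exon counts (circles) and intron reads (squares) for the 3 comparisons, with 95% intervals as lines; filled symbols have an adjusted p under 0.05 and open ones do not, and Ankrd2 has no exon value because the filter left it out. Exon and intron changes point the same way for every gene tested in both that has a filled symbol, from Xirp2 at 3.53 and 3.60 to Fhl2 at -1.61 and -1.57 in SU_HX against CTRL.

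Between Chrysin and CTRL, 3 of the 8 tested genes were called higher and none lower, Ankrd1, Ankrd23 and Xirp2, against 8.69% of all genes called, 4.72% higher and 3.97% lower. The authors' deposited table, by its own adjusted p under 0.05, calls 6 of the 9 here, those 3 with Ankrd2 (0.000301), Csrp3 (0.0241) and Fhl1 (0.0347). Here too the share of all genes that the authors' test calls was not counted. This comparison shares the CTRL libraries with the one above. Ankrd1 had 6804, 7948, 6105 and 7853 CPM in Chrysin, each above every CTRL library, and the rise was 3.92-fold (log2 1.97 ± 0.38 SE, adjusted p = 0.00998 by edgeR). Ankrd23 had 92.5, 107.1, 18.9 and 147 CPM, a rise of 15.3-fold (log2 3.93 ± 0.63 SE, adjusted p = 0.00612). Xirp2 had 6947, 8007, 1726 and 12556 CPM, a rise of 7.63-fold (log2 2.93 ± 0.62 SE, adjusted p = 0.0152). The Chrysin 3 values of the last 2 genes were the lowest of the group and still above all CTRL values. Without Chrysin 3 the rise was 19.4-fold for Ankrd23 (adjusted p = 0.000275 by edgeR) and 9.65-fold for Xirp2 (0.00188). Leaving out the lowest library of the group raises both by construction. The Xirp2 call was lost without CTRL 1, 3 or 4 or without Chrysin 4, with adjusted p-values of 0.0525 to 0.0584.

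Of all 9 genes, 6 were higher and 1 was lower in every Chrysin library than in any CTRL library, while 10.6% of tested genes were higher and 12.8% lower in that way. Besides those 3 genes these were Ankrd2, Csrp3 and Fhl1, and Fhl2 on the lower side. Csrp3 had 1112, 1044, 753 and 1121 CPM in Chrysin, a log2 difference from CTRL of 1.0 with an adjusted p of 0.0614 by edgeR. Fhl1 had 496, 509, 340 and 595 CPM, a log2 difference of 0.87 with an adjusted p of 0.0606. Fhl2 had 439, 477, 715 and 181 CPM, a log2 difference of -1.01 with an adjusted p of 0.146. Without SU_HX 1 and Chrysin 3 these 3 passed, with log2 differences of 1.12, 1.01 and -1.32 and adjusted p-values of 0.00011, 0.000206 and 0.0155. Chrysin 3 was the Chrysin library nearest to CTRL in all 3 genes. Leaving it out thus widens these differences by construction, and no support is drawn from these p-values. DESeq2 on all libraries also called Csrp3 and Fhl1, and not Fhl2. Fitted on the CTRL and Chrysin libraries alone, Csrp3 (adjusted p = 0.00355 by edgeR), Fhl1 (0.00608) and Nrap (0.0311) passed. Leaving out SU_HX 1 or Chrysin 3 alone was enough for Csrp3 and Fhl1 to pass, and for Fhl1 also leaving out SU_HX 2. Xirp1 had 429, 505, 408 and 539 CPM in Chrysin and Nrap 1240, 1069, 1211 and 852 CPM, and neither passed, with adjusted p-values of 0.717 and 0.295 by edgeR. By intron reads, Ankrd2, Ankrd23 and Xirp2 were called higher and Fhl2 lower in Chrysin than in CTRL. Over all genes 11.8% were called on that readout, 4.97% higher and 6.81% lower. Fhl2 introns fell 2.63-fold with an adjusted p of 0.0162 by edgeR. Ankrd1 introns were 1.89-fold higher and did not pass (adjusted p = 0.0507 by edgeR).

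Between Chrysin and SU_HX, none of the 8 tested genes was called by edgeR, and none had an unadjusted p under 0.05. Over all genes 0.00% were called, 8.14% had an unadjusted p under 0.05, and DESeq2 called 2 genes, neither of them 1 of the 9. A p that misses the threshold does not show that the groups were alike, and the intervals give what the data allow. For Ankrd1, Chrysin stood between 0.687 and 2.03 times SU_HX. For Ankrd23 the 95% interval of Chrysin over SU_HX was 0.272 to 1.31 and for Xirp2 0.279 to 1.56. For Fhl2 it was 0.813 to 2.83. Csrp3, Fhl1, Xirp1 and Nrap had narrower intervals, from 0.671 at the lowest to 1.85 at the highest. Without SU_HX 1 and Chrysin 3, Ankrd23 had a log2 difference of -0.71, Xirp2 of -0.60 and Fhl2 of 0.05, and none was called. By intron reads none of the 9 was called, where 0.00817% of genes were, 1 gene in all, Ndufaf6.

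Partners of these proteins were read from lists by function, each beside the median log2 change of all tested genes, 0.07 in SU_HX against CTRL. The counts below stand beside the 30.7% of all genes called in this comparison, 16.0% higher and 14.7% lower, and nothing particular to a list is read from them. Of 24 tested Z-disc and titin-linked partners, 2 rose and 3 fell, with a median of -0.09. Flnc, the muscle filamin, rose 2.02-fold (adjusted p = 0.0116 by edgeR) and Pdlim5, a PDZ and LIM protein of the Z-disc, rose 1.97-fold (0.00548). Ldb3, the Z-disc protein Cypher, fell 1.96-fold (0.0107), and the ubiquitin ligase Trim63 also fell, as did Palld_1, whose suffix marks a symbol that the table holds more than once. Most of this list did not pass, 19 of 24.

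Among 22 tested LIM proteins and adhesion partners, 9 rose and 4 fell, with a median of 0.33. Ilk, which rose, Parvb, which fell, and Parva, which did not pass, bind LIM proteins and carry no LIM domain. Csrp2, a paralogue of Csrp3 known from smooth muscle, rose 10.2-fold, from 7.34 ± 0.662 to 75.2 ± 47.6 CPM (adjusted p = 0.00457 by edgeR). Tgfb1i1, the focal adhesion protein Hic-5, rose 3.25-fold (0.00204), and Limd1 fell 2.02-fold (0.000895). Fhl3, another four-and-a-half LIM gene, fell 1.83-fold (0.00301), in the direction of Fhl2 and opposite to Fhl1, and Lims2 fell 2.18-fold. Of 16 intercalated disc genes, 1 rose, the talin gene Tln1 at 1.65-fold, and 5 fell, Tmem65, Ctnna3_1, Gja1, Jup and Dsc2, with a list median of -0.45. Gja1, the main connexin of ventricular muscle, fell 2.01-fold (adjusted p = 0.0220 by edgeR).

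Ankrd1 is a known target of the YAP and TEAD pathway, which turns on genes when cells are stretched. Of 17 genes and targets of that pathway, 6 rose and 1 fell, with a median of 0.26. The 1 that fell was Amotl2, by 1.43-fold (adjusted p = 0.0216 by edgeR). Ctgf, a matricellular protein, rose 11.1-fold, from 102 ± 28.7 to 1131 ± 478 CPM (adjusted p = 0.00161 by edgeR), and Nuak2 rose 3.19-fold and Axl 2.39-fold. Cyr61, another classical target of the pathway, had a log2 difference of 0.14 (adjusted p = 0.801). Cyr61, Csrp2, Ilk and Parva were chosen for mention after their values were seen. Of 17 genes and targets of SRF and its MRTF cofactors, 4 rose and 2 fell, with a median of 0.09. Acta1, the skeletal actin, rose 5.51-fold (adjusted p = 0.00192 by edgeR), and Tpm4, Flna and the cofactor gene Mkl1 also rose, while Srf itself fell 1.49-fold and the tropomyosin gene Tpm1 fell 2.23-fold.

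Markers of several cell types also differed between the groups. Of 12 cardiomyocyte markers 6 fell in SU_HX against CTRL, Myh6 by 10.1-fold, and none rose. Of 4 tested atrial markers 2 rose, of 9 fibroblast markers 7 rose, and all 8 macrophage, all 6 erythroid and all 4 tested lung epithelial markers rose. Of 6 endothelial markers 1 rose, and none of 7 smooth muscle markers passed. The summed fibroblast level was 3941 to 6176 CPM in CTRL, 6148 to 22929 in SU_HX and 4688 to 10689 in Chrysin, and the lung sum was 1.07 to 3.84, 12.7 to 61.9 and 5.95 to 16.2 CPM. The macrophage sum was 123 to 184, 351 to 742 and 195 to 487 CPM. In Chrysin against SU_HX no gene of any of the 14 lists was called. The part of these cell types in the members' changes was not tested.

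For each of the 4 tested members that changed at least 2-fold in SU_HX, the genes with the most similar pattern were sought among 9787 others, as the mean absolute difference of log2 levels from the CTRL mean over the 12 libraries. Nearest to Ankrd1 were Prss23, at 0.25, and Phf24, at 0.27. Nearest to Xirp2 were Abca5, at 0.30, and Sbsn, at 0.33, and nearest to Ankrd23 were Ncam1, at 0.44, and Rnd1, at 0.46. Nearest to Fhl2 were Tmem143, at 0.16, and Atp2a2, the calcium pump of the sarcoplasmic reticulum, at 0.17. Atp2a2 fell 3.41-fold in SU_HX against CTRL, with an adjusted p of 0.00754 by edgeR. These distances are descriptions over libraries that all 9 genes share.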

How the data were processed

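The authors deposited 1 table with a whole-number count per gene and library, together with exon, intron and uniquely mapped reads, per the file headers. Which aligner, build, annotation and strand setting were used is not given in the sources used here, so reads of overlapping antisense genes cannot be told apart. The same deposited table holds the authors' own tests of each pair of groups, with p-values adjusted for false discovery and a signed fold score. Only their calls and adjusted p-values for the 9 genes were used. All reads counted for the 9 genes were unique to them (100.0%).

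Counts were fitted with edgeR 4.0.16 (R 4.3.3; TMM, filterByExpr by group, robust quasi-likelihood F test, two-sided) with all 12 libraries in 1 fit, Benjamini-Hochberg adjustment over all tested genes and a threshold of 0.05. Intron reads were fitted the same way. The procedure was tested on simulated data in which the spread between libraries had the same setting in all groups. The uneven spread of the groups here was thus not covered. Intervals are 95%. Counts of libraries within a group differed beyond sampling noise (smallest chi-square per degree of freedom 3.17). Total counts of 3997306 to 6009798 set the precision.

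Groups came from the labels. The members, lists and tests were chosen with earlier results of these data known. All 9 genes were named in every comparison, and of each list counts, the 3 members with the smallest p in SU_HX against CTRL and those passing in a direction where 5 or fewer did; Csrp2, Cyr61, Ilk and Parva are outside this rule. Zero to few counts were handled as exact Poisson ratios. Promoters were taken from RefSeq, GRCr8. Alternatives were relative log expression factors, no filter, at least 5 CPM, unique reads, DESeq2 1.42.0, limma-voom (limma 3.58.1), only the groups compared, replicate number as a block, each library left out, both libraries that stood apart left out, a pseudocount of 2 and, added after seeing the data, intron rows with 0 exons left out.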

Additional observations from a re-analysis of the deposited data

Results flagged for a closer look

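Of 66 groups of 4 values, 2 had a library whose gap to the nearest other exceeded Dixon's 95% critical value, and chance flags about 1 in 20 groups. Ankrd2 in CTRL was flagged for CTRL 1, at 0.222 CPM, which is 1 count where the other 3 libraries had 0. Xirp1 intron reads in SU_HX were flagged for SU_HX 1, at 16.1 CPM against 36.2 to 39.5 CPM in the other 3.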

How the results depend on the processing

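The calls of Ankrd23, Xirp2, Ankrd1 and Fhl2 in SU_HX against CTRL kept direction and threshold under every alternative run. The Chrysin against CTRL count of 3 members was 6 with only the groups compared, with both libraries that stood apart left out, and with DESeq2, whose 6 include Ankrd2, absent from the filtered fit. All genes called there numbered 1069, against 2599, 3564 and 1648 under those settings and 624 with the replicate block. In Chrysin against SU_HX, DESeq2 called 2 genes of all, Cttn_1 and Rgs6, against 0. Replicate numbers did not pair the libraries: 0 of 12 same-numbered pairs had a correlation of deviations over 0.1 (-0.39 to 0.08). The block took Csrp3 in SU_HX against CTRL to an adjusted p of 0.0838. With a pseudocount of 2 the log2 ratio of Ankrd2 to Ankrd1 was 0.45 in SU_HX and -0.17 in Chrysin against CTRL, from 1.92 and 1.23.

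Leaving out 1 library gave 4 to 6 members and 2486 to 4780 genes called in SU_HX against CTRL. In Chrysin against CTRL it gave 2 to 5 members and 303 to 2092 genes. By intron reads 5 to 8 and 2 to 6 members were called in these comparisons. The matching intron counts over all genes were not taken, so these ranges are not read further. For the ratios, 3 against 4 libraries cannot go below an exact permutation p of 0.0571. In Chrysin against SU_HX, where nothing was called, signs turned. Fhl1, at a log2 difference of -0.0048, was 0.0060 with relative log expression, 0.0054 with the groups compared only, 0.011 with DESeq2, 0.020 with no filter, 0.035 with the block and 0.044 with voom. Without both libraries Csrp3 was -0.047, Xirp1 -0.041 and Nrap -0.0024. Leave-one-out ranges that crossed 0 were -0.041 to 0.43 for Ankrd1, -0.16 to 0.27 for Csrp3, -0.10 to 0.22 for Xirp1 and -0.23 to 0.17 for Fhl1, and for Xirp1 in SU_HX against CTRL -0.071 to 0.25. The cause was not tested. Depth limits Ankrd2.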
